A study of Mus musculus with 4 samples.

Results

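Cholesterol efflux genes and genes of the liver X receptor (LXR) circuit were followed by name: Abca1, Abcg1, Nr1h3, Nr1h2, Mylip, Npc1, Npc2 and Soat1. These 8 genes of the 31053 in the feature tables were listed by symbol, with earlier results of these data known. Each symbol matched 1 row. Droplet single-cell RNA sequencing counted unique molecular identifiers (UMIs) in cardiac cells of CSF1R-EGFP mice aged 12 to 16 weeks, sorted as EGFP+ and Ly6G-. In this line the Csf1r promoter drives EGFP in all groups. The sort therefore takes Ly6G- cells in which that promoter is active, monocytes and dendritic cells included, and not macrophages alone. The baseline group was 1 library pooled from 3 hearts without surgery, and in the infarct group each of 3 libraries held cells from a single heart, taken 7 days after ligation of the left coronary artery with the remote zone cut away. After filtering, 10238 baseline cells and 10396, 10782 and 10117 cells of infarct replicates 1, 2 and 3 were kept, with a median of 6398.5 UMIs per cell at baseline and 8469.5 to 8556.5 in infarcts, and 179 cell barcodes occurred in more than 1 library.

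LXRα (Nr1h3) and LXRβ (Nr1h2) are nuclear receptors that bind oxysterols and, paired with retinoid X receptors, switch on genes that remove cholesterol from the cell. Their classical targets in macrophages include the membrane transporters Abca1 and Abcg1, which load cholesterol onto lipoprotein particles, and Mylip (IDOL), a ubiquitin ligase that limits lipoprotein uptake. Cholesterol taken up with dead cells or lipoproteins leaves the lysosome through Npc2 and Npc1 and is then exported or esterified for storage by Soat1, and macrophages that clear injured myocardium handle large amounts of it.

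Promoter sequence was looked up for the members in the RefSeq table of GRCm38.p6, which held 6 of the 8 and not Abcg1 or Npc1. The Abca1 promoter is shown because it was the only one of the 6 that held either of the searched motifs. The LXR element was searched as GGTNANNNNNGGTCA (DR4) and the E-box as CACGTG, on both strands, in windows of 300 bases. The 250 bases upstream of the Abca1 start, chr4:53159896-53160145 on the minus strand, are printed 5′ to 3′ with both matches in capitals.
Abca1: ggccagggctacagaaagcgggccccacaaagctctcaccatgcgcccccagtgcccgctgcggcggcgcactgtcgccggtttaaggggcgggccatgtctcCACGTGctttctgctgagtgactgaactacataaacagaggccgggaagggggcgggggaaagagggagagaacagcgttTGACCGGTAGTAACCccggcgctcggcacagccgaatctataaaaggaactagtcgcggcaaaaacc
The E-box match begins 147 bases before the start, and the DR4 match, which reads on the opposite strand, begins 67 bases before it. The matches do not overlap. Among 32851 promoter windows of the same length, 68 (0.207%) held the DR4 pattern and 2349 (7.15%) held the E-box. Such matches describe letters and not binding.

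Cells were assigned to gates, ranges of marker counts in which no member took part, and a gate is named by its markers. Macrophages were cells rich in complement C1q transcripts and made up 68.0% of baseline cells and 82.7% ± 3.66 (SD, n = 3) of infarct cells. Within macrophages, the Lyve1/Cd163 gate held 34.7% of all cells at baseline and 2.08% ± 1.01 in infarcts. Macrophages with Gpnmb, a lysosomal glycoprotein, were split into Spp1-low cells (0.342% and 5.14% ± 1.37) and Spp1-high cells (0.254% and 3.73% ± 0.324), which left only 35 and 26 baseline cells in them. The Saa3/Arg1 gate held 1028, 106 and 610 cells of infarct replicates 1, 2 and 3 and 8 baseline cells. The macrophage label was checked with Csf1r, Adgre1, Mertk, Fcgr1, Cd68 and Trem2, none of which was used to gate: all 6 were found in macrophage-gated cells of every library, at summed counts per 1000000 UMIs (CPM) of 2591 to 3518. In the same cells, summed B cell markers (Cd22, Pax5, Bank1) reached 21.3 to 100.3 CPM, granulocyte markers (S100a8, S100a9, Csf3r) 30.6 to 59.8, endothelial markers (Pecam1, Kdr, Flt1) 7.81 to 10.0 and fibroblast markers (Tcf21, Col1a1, Pdgfrb) 1.09 to 13.1 CPM. Dendritic markers (Zbtb46, Itgax, Dpp4, Kit, Naaa) reached 102 to 167 CPM there, with all 5 found in every library. Monocyte markers (Ccr2, Hp, F13a1, Ly6c1) summed to 532 to 1988 CPM in macrophage-gated cells and to 2388 to 3282 CPM in classical monocytes, so the macrophage gates also carried monocyte transcripts. The highest sum in a library was at baseline, and Lyve1/Cd163 macrophages of that library had 2585 CPM of monocyte markers beside 2806 CPM of macrophage markers.

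The first comparison asked how the members stood in infarct macrophages beside macrophages of uninjured hearts. All 8 members lay above baseline in each of the 3 infarct libraries, both over all cells and over macrophage-gated cells, with Nr1h3 and Abcg1 furthest above and Nr1h2 closest to baseline. Over macrophages, 28.9% of the 8246 genes with at least 10 CPM in either group lay above baseline in every infarct library and 58.8% lay below. Over all cells the shares were 29.1% and 58.1% of 8249 genes. The baseline group is 1 library, so these values carry no test, and the intervals printed for it are exact Poisson 95% intervals that cover counting error only.

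Of the receptors, Nr1h3 was at 4.61 CPM (exact Poisson 95% interval 4.01 to 5.26) in baseline macrophages and at 19.2, 11.1 and 12.3 CPM in those of infarct replicates 1, 2 and 3, a mean of 14.2 ± 4.38 CPM (SD, n = 3) and 3.08-fold the baseline level. Replicate 1 was well above the other infarct libraries, and every infarct library was above the baseline interval. Nr1h2 was at 34.1 CPM (32.5 to 35.8) at baseline and 41.3, 41.4 and 37.2 CPM in infarcts, 1.17-fold. Over all cells, replicate 3 with 37.9 CPM of Nr1h2 fell inside the baseline interval of 35.6 to 38.5 CPM.

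Abca1, the transporter that loads lipid-poor apolipoprotein A-I, was at 223 CPM (219 to 227) in baseline macrophages and 318, 284 and 321 CPM in infarct macrophages, 1.38-fold. Abcg1, which serves larger lipoprotein particles, was at 35.01 CPM (33.3 to 36.7) at baseline and 96.3, 75.6 and 91.6 CPM in infarcts. Its infarct mean of 87.8 ± 10.9 CPM was 2.51-fold the baseline level, and the groups did not overlap for either transporter. Mylip was at 57.3 CPM (55.2 to 59.6) at baseline and 77.3, 73.8 and 73.0 CPM in infarcts, 1.303-fold, with little spread between the infarct hearts.

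The lysosomal exporters and the esterifying enzyme followed the same order of groups. Npc1, the membrane protein of the pair, was at 60.0 CPM (57.8 to 62.3) at baseline and 85.9, 82.7 and 83.4 CPM in infarcts, 1.40-fold. Npc2, the soluble lysosomal carrier, was at 806 CPM (798 to 814) at baseline and 1304, 1435 and 1334 CPM in infarcts, 1.68-fold. Soat1 was at 81.2 CPM (78.6 to 83.8) at baseline and 143, 128 and 142 CPM in infarcts, 1.69-fold. For all 3 genes the infarct libraries lay outside the baseline interval. By a stricter count, with every infarct library above baseline and the infarct mean at least 2-fold above it, 2 of 8 members qualified in macrophages, Nr1h3 and Abcg1, where 2.95% of genes did and 8.16% lay 2-fold below. Over all cells 1 of 8 qualified, Nr1h3 at 2.08-fold, where 2.35% of genes did and 7.21% lay 2-fold below.

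On the CPM scale the median gene stood at a log2 ratio of -0.22 between infarct and baseline macrophages, and the members' median was 0.62. TMM scaling moved the median gene to 0.078 and the shares of genes above and below to 48.5% and 37.9%, and DESeq2 size factors moved it to 0.13 with 52.0% and 34.98%. Over all cells the shares were 49.5% and 36.8% with TMM and 51.7% and 34.6% with DESeq2 size factors. Under every scaling, and with each cell thinned to 2000 UMIs, all 8 members stayed above baseline in all infarct libraries. Other measures moved with the groups. Summed markers of resident macrophages (Folr2, Cbr2, Retnla, Siglec1) were at 1825 CPM in baseline macrophages and at 115 to 181 CPM in infarct macrophages, all 4 found in every library. The 4 monocyte markers summed to 1988 CPM in baseline macrophages and to 532 to 883 CPM in infarct macrophages. Granulocyte markers were at 30.6 CPM at baseline and 58.6 to 59.8 CPM in infarcts. Fibroblast markers were at 1.09 CPM at baseline and 12.2 to 13.1 CPM in infarcts, B cell markers at 100.3 and 21.3 to 24.7 CPM, and the median mitochondrial share was 4.26% at baseline and 2.76% to 3.43% in infarcts. A level over all macrophages mixes the makeup of the population with the level in its cells, which cannot be told apart in such a sum, and the part of these measures was not tested.

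**Figure D1:**
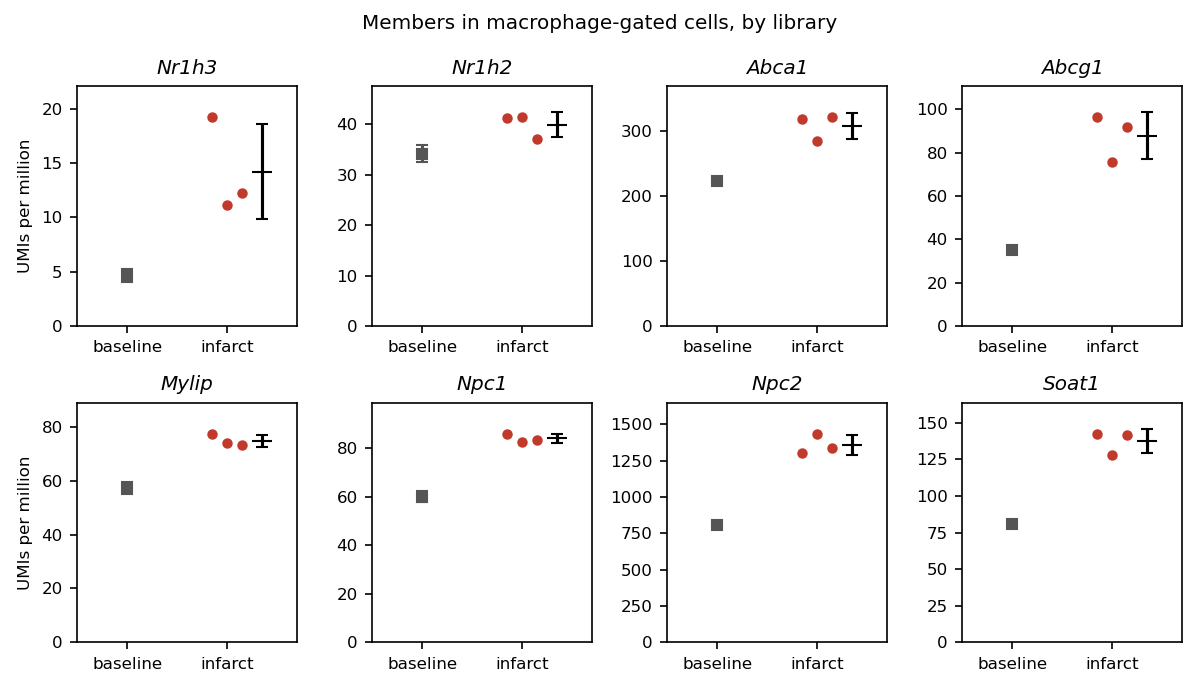
CPM of each member in macrophage-gated cells, by library, on axes that start at 0. The square is the baseline library with its exact Poisson 95% interval, the circles are the 3 infarct libraries, and the bar is their mean with SD (n = 3). Every infarct circle lies above the baseline square in all 8 panels, from 1.17-fold in the mean for Nr1h2 to 3.08-fold for Nr1h3.

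Within single gates the members divided. The Saa3/Arg1 gate, with 8 baseline cells, was left out of this account. In Lyve1/Cd163 macrophages and in MHC-II-high Gpnmb-low macrophages, all 8 members lay above baseline in every infarct library, where 26.5% and 28.7% of genes with at least 10 CPM in either group did and 38.1% and 57.7% lay below. In the interferon-response, cycling and remaining macrophage gates 6 of 8 members lay above and 0 below, beside 28.9%, 29.4% and 27.4% of genes above and 56.6%, 53.8% and 61.9% below. In Gpnmb+ Spp1-low macrophages 3 of 8 lay above and 3 below, with 30.8% and 55.1% of genes doing so. The Spp1-high gate had 3 above and 4 below, with 32.4% and 52.7% of genes. The counts above in both gates and the count below in the Spp1-high gate are near the shares of all genes, and in each gate only 1 of the members below lay outside the baseline interval in every infarct library. Classical monocytes had 4 above and 2 below (29.5% and 47.4% of genes), non-classical monocytes 5 and 2 (30.3% and 39.8%), and type 2 dendritic cells 2 and 2 (28.1% and 49.0%).

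Soat1 changed sides between gates. It was 2.63-fold the baseline level in cycling macrophages, where it was at 49.7 CPM (40.4 to 60.4) at baseline and 144, 118 and 130.3 CPM in infarcts, and 1.88-fold in Lyve1/Cd163 macrophages. In Gpnmb+ Spp1-low macrophages it was at 271 CPM (226 to 323) at baseline and 172, 172 and 200.2 CPM in infarcts, so all infarct libraries were below the baseline interval. The Spp1-high gate gave 326 CPM (275 to 385) and 229.8, 197 and 232 CPM, and classical monocytes gave 224 CPM (210.5 to 239) and 184, 161 and 193 CPM, also below in every infarct library. At baseline Soat1 was highest in the few Gpnmb+ cells, followed by classical monocytes and granulocyte-gated cells, the latter at 223 CPM (194 to 255). The baseline Gpnmb+ values rest on 124 and 141 UMIs.

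Abca1 kept to one side in the macrophage and monocyte gates. In classical monocytes it was at 22.6 CPM (18.3 to 27.6) at baseline and 65.7, 94.4 and 76.2 CPM in infarcts, 3.49-fold, and in non-classical monocytes at 25.5 CPM (21.95 to 29.5) and 67.7, 48.6 and 71.9 CPM. In MHC-II-high macrophages it was 1.91-fold and in Gpnmb+ Spp1-high macrophages 2.75-fold the baseline level, the latter from 57 baseline UMIs. Type 2 dendritic cells had 13.5, 13.7 and 10.5 CPM in infarcts and 12.7 CPM (9.03 to 17.4) at baseline, and these groups overlapped. Among gates with at least 20 baseline cells, Mylip had its largest ratios in the Gpnmb+ gates, 2.30-fold in Spp1-low and 2.99-fold in Spp1-high cells, against 18 and 12 baseline UMIs. Abcg1 was 2.78-fold in Lyve1/Cd163 macrophages, 2.63-fold in cycling and 1.98-fold in MHC-II-high macrophages, while in both Gpnmb+ gates and in classical monocytes its infarct libraries lay on both sides of baseline.

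Nr1h3 in Lyve1/Cd163 macrophages was at 3.82 CPM (3.102 to 4.67) at baseline and 39.7, 7.77 and 18.9 CPM in infarcts. The infarct hearts differed widely there, with replicate 1 far above replicate 2, which had 98 cells in the gate. In the Gpnmb+ gates Nr1h3 did not lie above baseline in every library, and the Spp1-high gate gave 32.4 CPM (17.7 to 54.4) at baseline, from 14 UMIs, and 25.9, 15.3 and 28.7 CPM in infarcts. Npc2 lay above baseline in all 7 macrophage gates with at least 20 baseline cells, most in the remaining macrophages at 1.77-fold, and in type 2 dendritic cells it lay below, at 797 CPM (766 to 829.6) at baseline and 489, 513 and 539.9 CPM in infarcts. In those dendritic cells the summed resident markers were also at 761 CPM at baseline and at 2.74 to 4.84 CPM in infarcts, with 1 of the 4 markers at 0 in 2 infarct libraries, and their part in the Npc2 value was not tested. In the remaining macrophages the median depth was 2199 UMIs per cell at baseline and 8245.5 to 8417 in infarcts, and the part of depth was not tested. Npc1 was below baseline in classical monocytes, at 66.1 CPM (58.6 to 74.3) and 57.2, 57.9 and 57.3 CPM, and above it in cycling macrophages, at 50.2 CPM (40.8 to 60.9) and 73.1, 74.6 and 64.2 CPM.

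**Figure D2:**
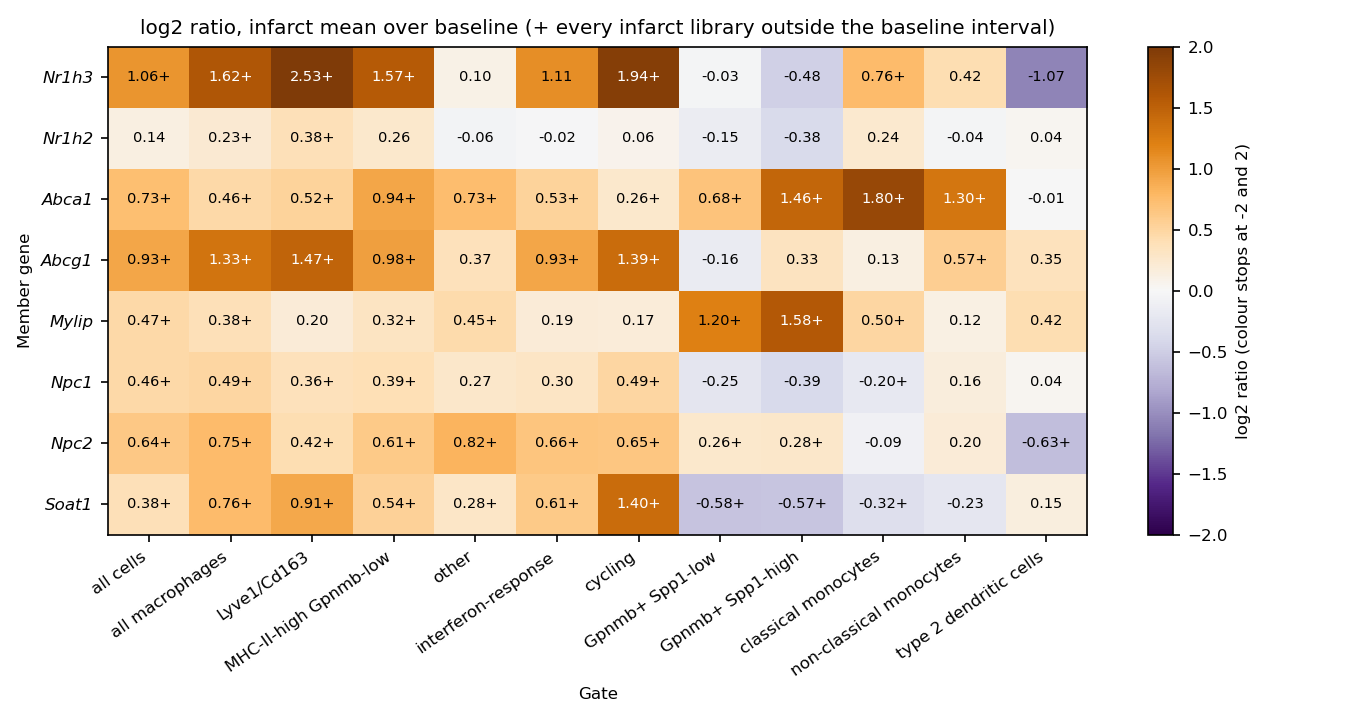
Log2 ratio of the infarct mean to baseline for each member (rows) in all cells, all macrophages and 10 gates (columns), with a plus sign where every infarct library lies outside the baseline interval. Soat1 runs from 1.40 in cycling macrophages to -0.58 in Gpnmb+ Spp1-low macrophages, and the colour scale stops at -2 and 2.

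Levels were next set side by side across the 12 macrophage, monocyte and dendritic gates with at least 20 cells in every infarct library. Granulocyte-gated cells also met that minimum, are left out of the order and had Soat1 at 211 ± 7.53 CPM (SD, n = 3). Abca1 had the widest range of the members as a ratio of the highest to the lowest gate, while in CPM Npc2 spanned more. For Abca1, 5 macrophage gates had overlapping ranges, from 422 ± 103 CPM in Lyve1/Cd163 to 358 ± 34.4 CPM (SD, n = 3) in Saa3/Arg1 macrophages. Below them stood interferon-response (282 ± 12.9), MHC-II-high (231 ± 16.5) and cycling macrophages (168 ± 8.62), none of which overlapped its neighbours. Classical and non-classical monocytes overlapped each other at 78.8 ± 14.6 and 62.7 ± 12.4 CPM, and type 2 and mature dendritic cells closed the order at 12.6 ± 1.78 and 11.8 ± 4.89 CPM. Abcg1 gave a different order, with non-classical monocytes first at 124 ± 18.7 CPM and cycling macrophages last at 65.2 ± 7.28 CPM, and every neighbouring pair overlapped. Nr1h2 was the flattest member, from 48.0 ± 0.420 CPM in non-classical monocytes to 34.2 ± 3.39 CPM in cycling macrophages, again with every neighbouring pair overlapping.

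Nr1h3 was led by non-classical monocytes, 26.5 ± 3.83 CPM, and the first 5 gates overlapped in sequence down to Gpnmb+ Spp1-low macrophages at 19.2 ± 1.08 CPM, while type 2 dendritic cells stood apart at the bottom with 1.55 ± 1.62 CPM from 13 UMIs. Npc1 separated the gates in steps: Gpnmb+ Spp1-high (127 ± 4.01 CPM), Gpnmb+ Spp1-low (116 ± 3.18 CPM) and the remaining macrophages (93.1 ± 4.63 CPM) did not overlap one another, and mature dendritic cells were last at 20.3 ± 3.33 CPM. Npc2 was highest in the Gpnmb+ gates, which overlapped at 1758 ± 18.4 and 1738 ± 82.1 CPM, and lowest in type 2 dendritic cells at 514 ± 25.6 CPM. Mylip began with the Gpnmb+ gates and the remaining macrophages (90.7 ± 7.39, 83.2 ± 3.83 and 82.2 ± 3.49 CPM), which overlapped, and ended with type 2 dendritic cells at 30.5 ± 3.64 CPM. For Soat1, the Gpnmb+ Spp1-high gate at 219.6 ± 19.3 CPM overlapped the Spp1-low gate at 181 ± 16.3 CPM, which overlapped classical monocytes at 179 ± 16.5 CPM, and mature dendritic cells were last at 40.3 ± 16.4 CPM.

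**Figure D3:**
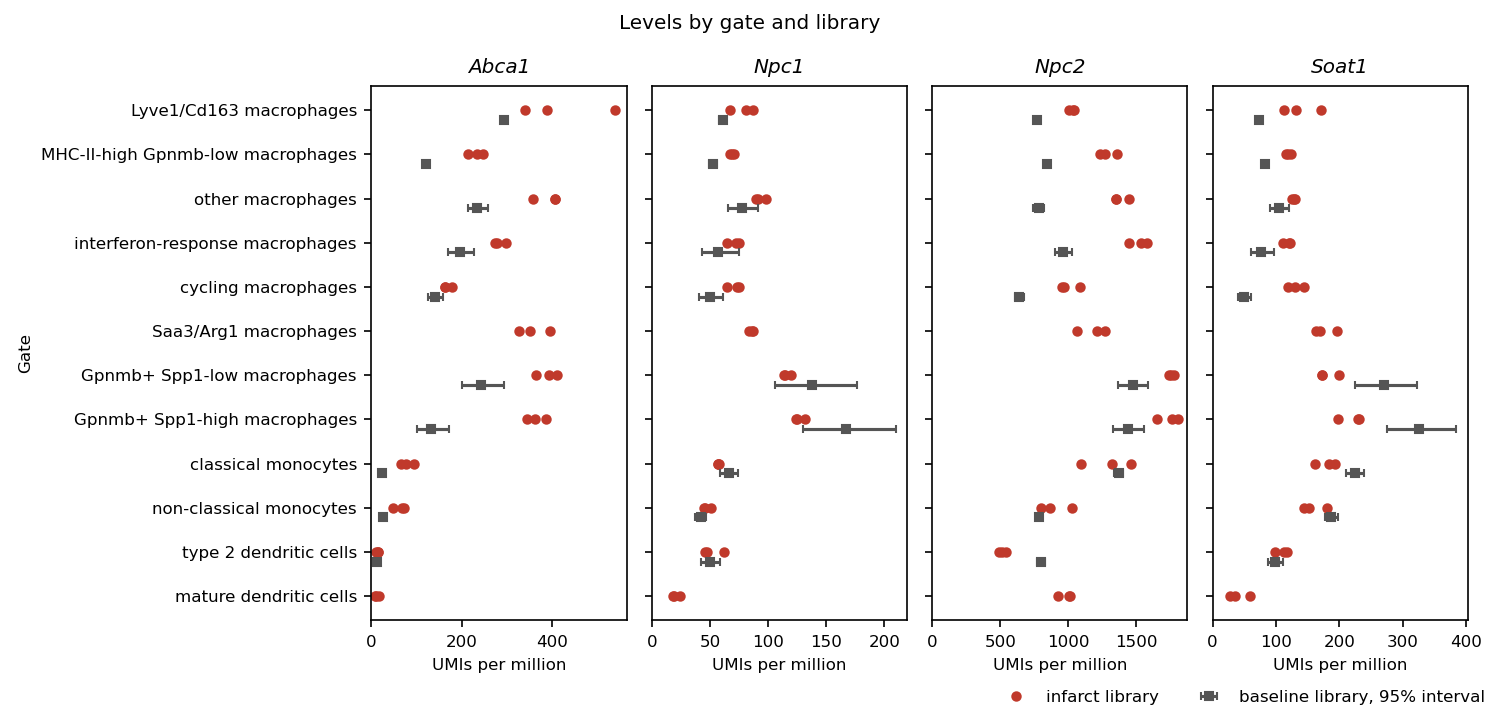
CPM of Abca1, Npc1, Npc2 and Soat1 (panels, each with its own axis from 0) in each gate (rows) by library. Circles are infarct libraries and squares the baseline library with its exact Poisson 95% interval, left out where the baseline held fewer than 20 cells. Abca1 ranges from 422 ± 103 CPM in Lyve1/Cd163 macrophages to 11.8 ± 4.89 in mature dendritic cells (infarct mean and SD, n = 3), while Soat1 in classical monocytes (179 ± 16.5) lies within the range of the macrophage gates.

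To test these differences, UMIs were summed per heart over a gate and over the other macrophage-gated cells, and the 3 pairs of sums were compared with edgeR with the heart as a block, at an adjusted p of 0.01 over all genes. Of 72 pairs of member and gate, 39 passed, 18 higher and 21 lower in the gate. Of all genes tested, 5.3% to 16.4% were called higher and 3.37% to 19.3% lower, depending on the comparison. The 3 sums on each side come from 3 hearts, and the comparisons share cells, because the other gates form each gate's comparator.

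In Gpnmb+ Spp1-high macrophages, 7 of 8 members were higher than in the other macrophages and 0 lower, where 10.6% of 12992 genes tested were called higher and 12.2% lower. Their median log2 fold change was 0.51, beside -0.044 over all genes. Soat1 was at 229.8, 197 and 232 CPM in the gate and 136, 124 and 136 CPM in the other macrophages of replicates 1, 2 and 3 (log2 fold change 0.82 ± 0.0514 SE, edgeR adjusted p = 4.89e-09). Npc1 was at 132, 125 and 124 against 82.4, 80.3 and 81.0 CPM (log2 fold change 0.74 ± 0.0532 SE, edgeR adjusted p = 2.72e-08). For both genes every gate value exceeded every comparator value. Npc2 was at 1648, 1808 and 1759 against 1277, 1414 and 1309 CPM and Abca1 at 362, 344 and 386 against 314, 281 and 317 CPM, also without overlap, at log2 fold changes of 0.48 and 0.35 (edgeR adjusted p = 1.72e-07 and 3.92e-05).

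Nr1h3 was higher in the Spp1-high gate in all 3 hearts, 25.9, 15.3 and 28.7 against 18.7, 10.9 and 11.3 CPM (log2 fold change 0.86 ± 0.148 SE, edgeR adjusted p = 2.74e-04), although the ranges of the groups overlapped with the comparator of replicate 1 above the gate of replicate 2. Abcg1 was likewise higher in each heart with overlapping ranges, 126, 81.3 and 150.4 against 93.9, 75.3 and 88.1 CPM (log2 fold change 0.55, edgeR adjusted p = 1.64e-04). Mylip was higher by 0.26 on the log2 scale (edgeR adjusted p = 0.00275), a result that did not pass without replicate 1 (adjusted p = 0.022), without replicate 3 (0.0313) and in 3 other settings. Nr1h2, at 39.7, 48.8 and 39.7 against 41.5, 41.0 and 37.0 CPM, did not pass (log2 fold change 0.19, edgeR adjusted p = 0.0848). Without the heart as a block, 4 of the 7 calls passed in this gate.

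The Gpnmb+ Spp1-low gate gave the same count, 7 of 8 higher and 0 lower, against 5.3% and 8.3% of 13086 genes, and again Nr1h2 was the member that did not pass (0.041, edgeR adjusted p = 0.75). Abca1 was at 410.4, 365 and 393 CPM in the gate and 312, 278 and 314 CPM in the comparator (log2 fold change 0.43 ± 0.0484 SE, edgeR adjusted p = 8.37e-06). Npc1 was at 119.8, 114 and 115 against 83.8, 80.6 and 80.4 CPM (log2 fold change 0.57 ± 0.0521 SE, edgeR adjusted p = 9.95e-07), and Npc2 at 1777, 1756 and 1741 against 1274, 1412 and 1295 CPM (log2 fold change 0.46 ± 0.0490 SE, edgeR adjusted p = 4.11e-06). None of these 3 genes overlapped between gate and comparator. Soat1, Abcg1 and Mylip were higher by 0.50, 0.47 and 0.36 on the log2 scale (edgeR adjusted p = 1.05e-05, 3.30e-05 and 2.65e-04), without overlap. The Mylip call passed in 8 of 11 other settings and not without the block (adjusted p = 0.0158), with thinned cells (0.153) or with the gate minimums doubled (0.0491). Nr1h3 passed at 0.60 (edgeR adjusted p = 0.00646) but was higher in only 2 of 3 hearts, 18.5, 20.5 and 18.7 against 19.3, 10.5 and 11.6 CPM, and did not pass without replicate 2 (adjusted p = 0.0879) or replicate 3 (0.0348). With no block, 4 of the 7 calls passed.

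**Figure D4:**
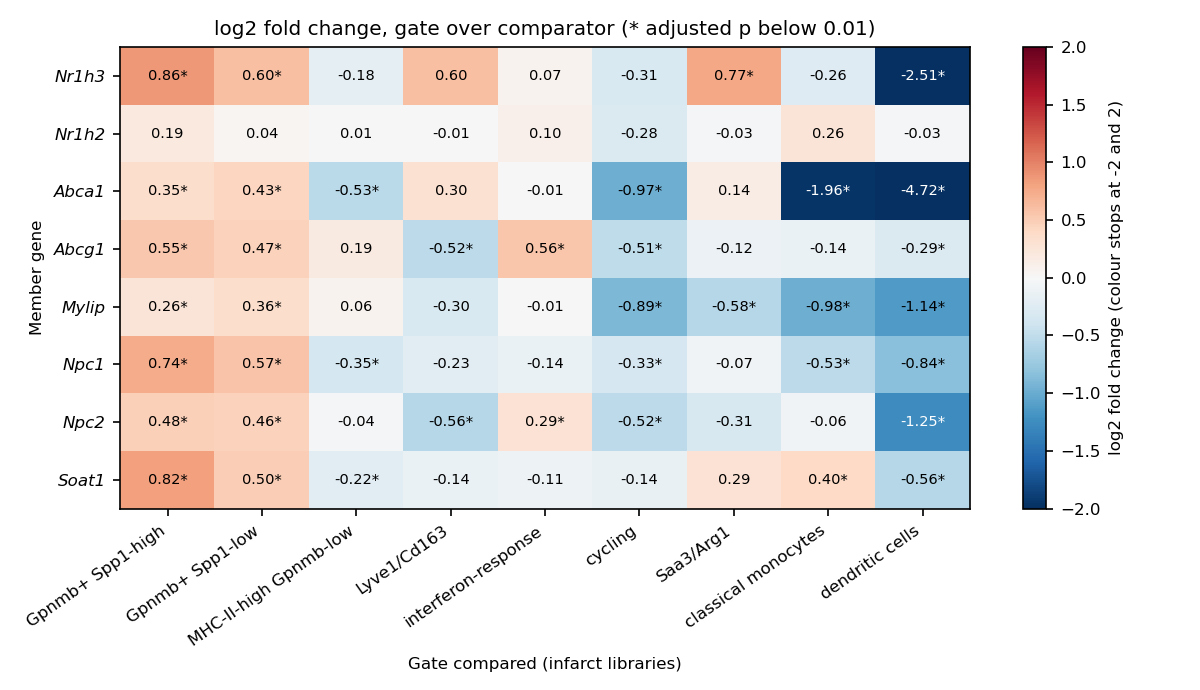
Log2 fold change of each member (rows) in each tested gate over its comparator (columns) within the infarct libraries, from edgeR, with a star where the adjusted p is below 0.01. The Gpnmb+ columns hold 7 stars each, all of higher values, the dendritic column holds 7, all of lower values, and Nr1h2 has 0 in 9 columns. The colour scale stops at -2 and 2, beyond which lies Abca1 in dendritic cells at -4.72.

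MHC-II-high Gpnmb-low macrophages, rich in antigen presentation transcripts, had 0 of 8 members higher and 3 lower, where 9.76% and 12.5% of 13078 genes were called. Abca1 was at 234, 213 and 246 CPM in the gate and 375, 327 and 362 CPM in the other macrophages (log2 fold change -0.53 ± 0.0356 SE, edgeR adjusted p = 3.15e-06), and Npc1 at 69.0, 67.6 and 70.8 against 97.5, 92.0 and 90.3 CPM (log2 fold change -0.35 ± 0.0396 SE, edgeR adjusted p = 1.10e-04). Both genes were lower in every heart without overlap. Soat1 was lower by a smaller step (log2 fold change -0.22, edgeR adjusted p = 0.00303) that passed in 7 of 11 other settings: it did not pass without replicate 1 (adjusted p = 0.0331), without the heart as a block (0.0784), with cells thinned to 2000 UMIs (0.0557) or with the gate minimums doubled (0.0112). The other 5 members lay between -0.18 and 0.19, and Abcg1, at an adjusted p of 0.0155, passed without replicate 3 (0.00275).

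In Lyve1/Cd163 macrophages, 2 of 8 members were lower and 0 higher, beside 7.8% and 8.11% of 13200 genes. Npc2 was at 1039.7, 1036 and 1007 against 1313, 1439 and 1346 CPM (log2 fold change -0.56 ± 0.133 SE, edgeR adjusted p = 0.001), without overlap, and Abcg1 at 96.0, 40.1 and 65.4 against 96.3, 75.9 and 92.5 CPM (log2 fold change -0.52 ± 0.136 SE, edgeR adjusted p = 0.00275), with overlap. Abca1 was at 538, 339 and 389 against 309.9, 284 and 318 CPM, above in each heart, and did not pass (log2 fold change 0.30, edgeR adjusted p = 0.0964). Replicate 2, the heart with 98 cells in this gate, bore on the calls: without it 4 members passed, Abca1 (adjusted p = 9.18e-04) and Nr1h3 (1.34e-05) added. Npc2 was not called without replicate 1 (adjusted p = 0.113) and Abcg1 not without replicate 3 (0.0614), leaving 1 call each time, and with no block 0 passed. For Nr1h2 the CPM were higher in 3 of 3 hearts while the fitted log2 fold change was -0.011.

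Interferon-response macrophages had 2 members higher and 0 lower, beside 7.87% and 3.37% of 13260 genes. Abcg1 was at 133, 97.1 and 121 CPM in the gate and 93.9, 73.6 and 90.1 CPM in the comparator (log2 fold change 0.56 ± 0.0511 SE, edgeR adjusted p = 1.36e-06), and Npc2 at 1537, 1575 and 1443 against 1289, 1422 and 1329 CPM (log2 fold change 0.29 ± 0.0398 SE, edgeR adjusted p = 8.58e-05). Gate and comparator did not overlap for either gene, and 0 of the 2 calls passed with no block. The companion transporter Abca1, at 273, 277 and 297 against 321, 285 and 322 CPM, gave -0.010 (edgeR adjusted p = 0.937).

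Cycling macrophages had 5 of 8 members lower and 0 higher, where 10.3% and 14.6% of 13229 genes were called. Abca1 was at 162, 163 and 178 CPM in cycling cells and 325, 291 and 332 CPM in the other macrophages (log2 fold change -0.97 ± 0.0594 SE, edgeR adjusted p = 1.90e-06), 1.96-fold lower. Mylip was at 52.2, 42.3 and 36.7 against 78.5, 75.7 and 76.0 CPM (log2 fold change -0.89 ± 0.0979 SE, edgeR adjusted p = 1.06e-04). Npc2, Abcg1 and Npc1 were lower at log2 fold changes of -0.52, -0.51 and -0.33 (edgeR adjusted p = 6.30e-05, 2.65e-04 and 0.00733). All 5 genes were lower in every heart without overlap. Soat1 did not pass (-0.14, edgeR adjusted p = 0.104), and without replicate 2 the calls of Npc1 (adjusted p = 0.0421) and Abcg1 (0.0104) were lost, leaving 3. Npc1 was also not called without replicate 3 (adjusted p = 0.0313).

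Saa3/Arg1 macrophages had 1 member higher, Nr1h3, and 1 lower, Mylip, beside 12.2% and 10.1% of 13024 genes. Nr1h3 was at 37.8, 24.4 and 14.5 CPM against 17.1, 10.97 and 12.1 CPM (log2 fold change 0.77 ± 0.170 SE, edgeR adjusted p = 0.00219), higher in each heart, and did not pass without replicate 1 (adjusted p = 0.152), the heart that gave 1028 of the gate's 1744 cells. Mylip was at 63.5, 37.2 and 54.7 against 78.9, 74.2 and 74.2 CPM (log2 fold change -0.58 ± 0.125 SE, edgeR adjusted p = 0.00191), lower in each heart without overlap. With no block, 0 of these 2 calls passed. Npc1, at 86.0, 87.0 and 83.4 against 85.9, 82.7 and 83.4 CPM, was above its comparator in 3 of 3 hearts by CPM and gave a fitted log2 fold change of -0.066.

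Monocytes and dendritic cells were compared with all macrophage-gated cells of the same heart. In classical monocytes, 3 members were lower and 1 higher, where 14.1% and 14.5% of 13245 genes were called. Abca1 was at 65.7, 94.4 and 76.2 CPM in monocytes and 318, 284 and 321 CPM in macrophages (log2 fold change -1.96 ± 0.120 SE, edgeR adjusted p = 9.35e-06), 3.88-fold lower, and Mylip at 34.4, 33.4 and 46.8 against 77.3, 73.8 and 73.0 CPM (log2 fold change -0.98 ± 0.111 SE, edgeR adjusted p = 2.17e-04). Npc1 was lower too (log2 fold change -0.53, edgeR adjusted p = 4.59e-04). Soat1 was the exception, higher in monocytes at 184, 161 and 193 against 143, 128 and 142 CPM (log2 fold change 0.40 ± 0.0626 SE, edgeR adjusted p = 0.00125). For these 4 genes the groups did not overlap and the call held in each of 11 other settings. Abcg1 (-0.14, edgeR adjusted p = 0.231) and Npc2 (-0.063, 0.45) did not pass.

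In dendritic cells, the type 1, type 2 and mature gates pooled, 7 of 8 members were lower and 0 higher, beside 19.3% and 16.4% of 13411 genes. Abca1 was at 13.6, 12.7 and 9.45 CPM in dendritic cells and 318, 284 and 321 CPM in macrophages (log2 fold change -4.72 ± 0.111 SE, edgeR adjusted p = 1.22e-10), 26.4-fold lower. Nr1h3 was at 3.53, 0.453 and 3.54 against 19.2, 11.1 and 12.3 CPM (log2 fold change -2.51 ± 0.284 SE, edgeR adjusted p = 2.54e-05), with 24 UMIs in dendritic cells in all. Npc2 was at 582, 589 and 592 against 1304, 1435 and 1334 CPM (log2 fold change -1.25 ± 0.0561 SE, edgeR adjusted p = 1.53e-08). None of the 3 genes overlapped between the cell types. Mylip, Npc1 and Soat1 were lower at log2 fold changes of -1.14, -0.84 and -0.56 (edgeR adjusted p = 3.48e-06, 2.67e-05 and 5.67e-05). Abcg1, at 79.7, 67.9 and 75.2 against 96.3, 75.6 and 91.6 CPM, passed narrowly (-0.29, edgeR adjusted p = 0.00925), did not pass without any 1 of replicates 1, 2 or 3 (adjusted p = 0.0797, 0.0138 and 0.0951) and held in 3 of 11 other settings. Nr1h2 was at 45.6, 37.6 and 37.0 against 41.3, 41.4 and 37.2 CPM (-0.032, edgeR adjusted p = 0.811) and did not pass.

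Other genes of the pathway were read from 5 lists. The shares of all genes called higher and lower were 10.6% and 12.2% in Spp1-high and 5.3% and 8.3% in Spp1-low macrophages. They were 9.76% and 12.5% in MHC-II-high, 8.11% and 7.8% in Lyve1/Cd163 and 7.87% and 3.37% in interferon-response macrophages. Cycling macrophages had 14.6% and 10.3% and Saa3/Arg1 macrophages 12.2% and 10.1%. List counts near these shares are not particular to a list. Of genes for ester and lysosomal cholesterol handling, 6 of 12 genes were higher and 0 lower in Spp1-high and 4 and 0 in Spp1-low macrophages, with medians of 0.20 and 0.16. In Spp1-high cells they included Nceh1, a cholesteryl ester hydrolase (log2 fold change 0.96), Lipa, the lysosomal acid lipase (0.86), and Gramd1b, a sterol transfer protein (0.59, edgeR adjusted p = 4.93e-09, 4.10e-09 and 1.58e-04). Lipa and Nceh1 were also higher in the Spp1-low gate (0.82 and 0.70). Lower were 5 of 12 in the MHC-II-high gate (Gramd1b -0.71, Nceh1 -0.37, Lipa -0.35), 5 in classical monocytes (Lipa -1.36) and 7 in dendritic cells (Lipa -2.16, Nceh1 -1.77, Lamp2 -1.29), with 0 higher in each. Interferon-response macrophages had 3 higher and 0 lower, among them Stard3, a late endosomal sterol transporter (1.21). Cycling and Lyve1/Cd163 macrophages had 0 higher and 2 lower, and Saa3/Arg1 macrophages 1 and 2.

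Of 15 other LXR targets, 4 were higher and 1 lower in Spp1-high macrophages, led by Lpl, the lipoprotein lipase (1.59), Smpdl3a (0.80) and the efferocytosis receptor Mertk (0.38), with a median of 0.21. In Spp1-low macrophages 5 were higher, Lpl (0.61), Apoe (0.52) and Smpdl3a (0.52) among them, and 2 lower, including the fatty acid synthase Fasn (-1.18). Saa3/Arg1 macrophages had the most, 8 higher and 2 lower with a median of 0.62: Apoc4 (1.99), the desaturase Scd2 (1.47) and Smpdl3a (1.30) were higher and Apoe lower (-1.59). Cycling macrophages had 1 higher (Fasn, 1.16) and 5 lower (Apoe -1.32, Pltp -0.91, Mertk -0.91). Classical monocytes had 4 higher and 5 lower, with Apoe at -2.53, and dendritic cells 4 and 8, with Apoe at -5.54 and the lipogenic genes Scd1 and Fasn at 2.56 and 1.68. MHC-II-high macrophages had 1 and 4, Lyve1/Cd163 3 and 3, and interferon-response macrophages 1 and 3.

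The list of oxysterol and uptake genes split within gates. In Spp1-high macrophages the scavenger receptor Cd36 (1.82) and Lrp1 (0.97) were higher, and Ch25h and Cyp27a1, enzymes that make oxysterols, were lower (-1.14 and -0.59), out of 6 genes. Ch25h was also lower in Spp1-low (-1.46), Lyve1/Cd163 (-1.47) and Saa3/Arg1 macrophages (-2.78) and higher in interferon-response macrophages (2.05, edgeR adjusted p = 1.86e-11). Cd36 was higher in Lyve1/Cd163 (1.85) and Saa3/Arg1 (2.26) and lower in MHC-II-high macrophages (-1.89). Dendritic cells had 0 higher and 5 lower of 6. The counts elsewhere were 1 higher and 2 lower in Spp1-low, 1 and 4 in MHC-II-high, 2 and 2 in Lyve1/Cd163, Saa3/Arg1 and classical monocytes, 2 and 1 in interferon-response and 1 and 2 in cycling cells.

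Genes of SREBP2 and sterol synthesis, which serve cholesterol gain, were called higher more often in dendritic cells and classical monocytes than lower. Of all genes, 16.4% were called higher and 19.3% lower in dendritic cells, and 14.5% and 14.1% in classical monocytes. Of 26 genes, 11 were higher and 2 lower in dendritic cells (Pmvk 1.67, Idi1 1.51, with a median of 0.56 beside -0.087 over all genes), and 11 higher and 1 lower in classical monocytes (Mvd 1.16, with a median of 0.32). In the Gpnmb+ gates 1 was higher and 3 lower (Spp1-high) and 0 and 3 (Spp1-low), with Sqle, squalene epoxidase, at -1.22 in Spp1-low macrophages. Saa3/Arg1 macrophages had 4 higher, among them Mvd (1.66), and MHC-II-high macrophages 4, with 0 lower in both. Cycling macrophages had 2 and 1, interferon-response 1 and 1, and Lyve1/Cd163 0 and 1, counts near or below the shares of all genes. Of the 7 LXR partners and coregulators, 0 passed in either Gpnmb+ gate, and Rxra, a retinoid X receptor, was lower in MHC-II-high macrophages (-0.49), classical monocytes (-0.69) and dendritic cells (-1.82) and higher in Saa3/Arg1 macrophages (0.85). Partners otherwise passed only in dendritic cells (3 lower in all), cycling macrophages (2 lower), interferon-response macrophages (1 lower) and Lyve1/Cd163 macrophages (1 higher).

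In infarct over baseline macrophages, the same lists divided, described without a test. Of 10 other LXR targets with at least 10 CPM, 7 lay above baseline in every infarct library and 3 below, from Apoe at 2.71-fold and Smpdl3a at 2.41-fold to Lpl, 1.59-fold below. Of 11 ester and lysosomal genes, 6 lay above and 3 below, with Nceh1 at 1.98-fold. Of 6 oxysterol and uptake genes, 2 lay above and 3 below, with Cd36 5.81-fold below. Of 17 sterol synthesis genes 4 lay above and 11 below, and of 7 partners 1 (Rxrb, 1.22-fold) above and 6 below. The medians were 0.22, 0.079, -0.18, -0.15 and -0.35 in that order, beside -0.22 over all genes. Of the 8246 genes with at least 10 CPM, 28.9% lay above and 58.8% below. The counts of the sterol synthesis list were near these shares.

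The likeness of patterns was described over 56 sums of a gate in a library with at least 20 cells, on log2(CPM + 10), among 3098 genes whose mean over these sums reached 50 CPM. Pearson's r is given in parentheses. The sums share libraries and differ in depth, so the values describe these libraries only. Abca1 ran closest to Blvrb (0.945), Apoe (0.938) and C3ar1 (0.936). Npc1 was most like Nceh1 (0.917), Nucb1 (0.867) and Scarb2 (0.863), Soat1 most like Frrs1 (0.894), Aprt (0.890) and Por (0.873), and Npc2 most like Ftl1 (0.870) and Atp6v0b (0.866), followed by Ftl1-ps1 (0.849), a pseudogene whose counts may be shared with Ftl1. The other members had weaker matches: Gngt2 (0.704) for Abcg1, Capns1 (0.695) for Nr1h3, Rabac1 (0.657) for Mylip and Tprgl (0.635) for Nr1h2. Among the members, Npc1 and Npc2 (0.64), Abcg1 and Nr1h3 (0.63) and Abca1 and Npc1 (0.61) had the highest values, Abca1 and Abcg1 only 0.17, and Nr1h2 lay between -0.25 and 0.26 with every other member.

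Shares of cells with at least 1 UMI were read at equal depth, because infarct macrophages had median depths of 8523 to 8596.5 UMIs and baseline macrophages 6472.5. Thinned to 2000 UMIs, 40.6% ± 1.82 (SD, n = 3) of infarct macrophages and 29.9% (exact binomial 95% interval 28.8 to 31.1) of baseline macrophages carried an Abca1 UMI, and unthinned 74.0% ± 0.709 and 54.4% did. Type 2 dendritic cells, where Abca1 was low, at median depths of 9741.5 to 9907 UMIs in infarcts and 10047 at baseline, gave 1.93% ± 0.745 and 1.75% thinned and 8.22% ± 2.48 and 10.1% unthinned, and the macrophage shares were above these values. For Nr1h3 the thinned shares were 2.19% ± 0.612 of infarct and 0.548% (0.380 to 0.765) of baseline macrophages, against 0.105% ± 0.182 and 0.350% (0.00885 to 1.93) of type 2 dendritic cells. Unthinned, 8.90% ± 2.14 of infarct and 2.50% of baseline macrophages carried an Nr1h3 UMI, and the baseline share was not distinguishable from that of type 2 dendritic cells at this depth, 2.44% (0.986 to 4.96). Thinning kept the 23810 of 25871 infarct and 6207 of 6964 baseline macrophages that had at least 2000 UMIs.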

How the data were processed

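Single cells were captured with droplet 3' chemistry, and the authors deposited UMI counts per gene and cell for each library, not normalized, with genes in the same order in all 4. The submitters' processing notes name Cell Ranger 3.0.1, the file headers name version 3.1.0, and the reference was mm10. The members and lists were chosen with earlier results of these data known. Cells with 500 to 40000 UMIs and more than 200 genes were kept, and mitochondrial genes were left out of sums. Gates followed fixed marker minimums, for example at least 20 C1q UMIs per 10000 for macrophages, and 896 cells lay between 15 and 25. UMIs were summed per library and gate, and CPM were computed from these sums. Gate and comparator sums of the 3 infarct hearts were tested by the quasi-likelihood method of edgeR (TMM, filterByExpr, library as a block, Benjamini-Hochberg adjustment over all genes, threshold 0.01). The pairing comes from the heart: both sums of a pair are cells of 1 heart. Infarct and baseline were compared without a test.

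All members are named, together with at most 3 genes per list, direction and comparison that passed in every fit leaving out 1 library, and the 3 genes most like each member. Some items that these rules would name are not reported here. Alternatives were DESeq2 size factors, its Wald test, keeping all genes of low count, dropping the block, leaving out each library, thinning, doubled gate minimums and removal of probable doublets or of cells over 10% mitochondrial UMIs. Scrublet called 227, 0, 0 and 3 cells on its own, which did not work in the infarct libraries, so the 8.10% to 8.63% of cells with the highest scores were removed in that alternative only. On simulated counts with 200 changed genes, 57% to 80% of 2-fold and 81% to 98% of 4-fold changes were recovered over the 9 comparisons (12747 to 13152 genes each), and 0 to 3 unchanged genes were called. These counts were drawn with the same mean in every heart. The member changes called in the macrophage gates were smaller than 2-fold, so these shares do not describe how often such changes are found. Software was Python 3.11.15, scanpy 1.11.5, R 4.3.3, edgeR 4.0.16 and DESeq2 1.42.0.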

Additional observations from a re-analysis of the deposited data

Results flagged for a closer look

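For 3 members the infarct over baseline ratio pointed in opposite directions in different gates, with all 3 infarct libraries outside the baseline interval on opposite sides, and the differences between gates were not tested. The log2 ratio of Npc1 was 0.49 in cycling macrophages and -0.20 in classical monocytes. In those monocytes its highest infarct value, 57.9 CPM, lay close to the interval bound of 58.6 CPM. On the CPM scale 47.4% of genes lay below baseline there and 29.5% above. Over all macrophages TMM moved the median gene from -0.22 to 0.078, a shift larger than the monocyte ratio of Npc1. That of Npc2 was 0.82 in the remaining macrophages and -0.63 in type 2 dendritic cells. That of Soat1 was 1.40 in cycling macrophages and -0.58 in Gpnmb+ Spp1-low macrophages, the latter against 35 baseline cells.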

How the results depend on the processing

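The count of members called was within 1.5 times its reported value under every alternative in the MHC-II-high, classical monocyte and dendritic comparisons. The replicate block, which pairs both sums of a heart, mattered in 5 others: with no replicate block 4 members were called in Gpnmb+ Spp1-high, 4 in Gpnmb+ Spp1-low and 0 in each of the Lyve1/Cd163, interferon-response and Saa3/Arg1 gates, and the cause was not tested. Lyve1/Cd163 macrophages gave 1 call with the DESeq2 Wald test, 1 with thinned cells and 1 to 4 with a library left out. Cycling macrophages gave 3 calls without replicate 2, and Saa3/Arg1 macrophages gave 1 without replicate 1 and 1 with thinned cells, which sums fewer UMIs. Over single members and settings, 715 values kept direction and call, 45 lost the call, 8 gained it and 24 turned direction.

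The values that turned were small and did not pass, with adjusted p of 0.217 or more. With a library left out, the log2 fold change of Nr1h2 ran from -0.02025 to 0.0943 in Gpnmb+ Spp1-low, from -0.01104 to 0.0545 in MHC-II-high, from -0.04057 to 0.02714 in Lyve1/Cd163, from -0.005123 to 0.1866 in interferon-response and from -0.1217 to 0.004399 in Saa3/Arg1 macrophages and from -0.1077 to 0.0685 in dendritic cells. In interferon-response macrophages it ran from -0.04601 to 0.04018 for Abca1, from -0.05861 to 0.2752 for Nr1h3 and from -0.2125 to 0.1709 for Mylip, which also turned to 0.01189 with no replicate block, and in classical monocytes from -0.4061 to 0.12 for Nr1h3 and from -0.107 to 0.05084 for Npc2. With thinned cells Nr1h2 turned to -0.175 in Gpnmb+ Spp1-high, -0.04893 in Spp1-low and 0.07481 in Saa3/Arg1 macrophages and 0.07291 in dendritic cells, where Abcg1, called lower in the main comparison, turned to 0.1802. Nr1h2 also turned to -0.002631 in MHC-II-high macrophages with gate minimums doubled, to 0.01221 and 0.01222 in Lyve1/Cd163 macrophages with DESeq2 size factors and the Wald test, and to 0.002942 in dendritic cells with DESeq2 size factors. The cause was not tested.

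Counts over all genes moved as well: with no block 635 genes were called higher and 733 lower in Gpnmb+ Spp1-high, 233 and 325 in Spp1-low, 171 and 350 in MHC-II-high, 242 and 263 in Lyve1/Cd163 and 567 and 107 in interferon-response macrophages. Thinned cells gave 578 and 559, 280 and 397, 710 and 891, 364 and 435 and 635 and 167 in the same order, 743 and 592 in cycling macrophages and 1033 and 1208 in dendritic cells. The DESeq2 Wald test gave 760 and 621 in Lyve1/Cd163 macrophages, leaving out replicate 1 or 3 gave 502 and 448 or 539 and 489 there, leaving out replicate 1 gave 822 and 1035 in MHC-II-high macrophages, and leaving out replicate 2 gave 985 and 354 in cycling macrophages. Of the infarct over baseline ratios, 112 moved by less than the spread between replicates under the alternatives and 40 by more, and all members stayed above baseline over all cells and all macrophages. The single baseline library, its few Gpnmb+ cells and the 24 Nr1h3 UMIs of dendritic cells limit the precision.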
